A study of Mus musculus with 4 samples.

Results

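The 10 genes described here carry out MHC class I antigen presentation: the heavy chain genes H2-K1, H2-D1, H2-T23 and H2-Q7, the light chain gene B2m, the peptide transporter genes Tap1 and Tap2, the loading factor gene Tapbp, and the immunoproteasome subunit genes Psmb8 and Psmb9. They were taken by symbol from the feature lists, and all 10 were found among 31053 genes. The set was chosen by measured values of these data: the difference between the groups was already known, in particular that of H2-K1 in nonclassical monocytes. Values for H2-K1 in every cell class, and for all 10 genes in nonclassical monocyte-like cells, are therefore given as a description with no test. The other 9 genes were tested in the other 5 classes, over all genes measured there.

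The cells were leukocytes from the perfused left ventricle of C57Bl6J mice that had received either a sham procedure (the labels' Sham) or DOCA-salt, deoxycorticosterone acetate with salt, a regimen that raises blood pressure. Each group held 4 mice, whose cells were released with Liberase, enriched on CD45 beads, marked by hashtag antibodies, pooled by group and sorted as live CD45+ cells. Age, sex and length of treatment are not given in the sources used here. Each group was 1 single-cell library read from the 5' end of transcripts, so treatment and library cannot be told apart in any comparison below. The 2 libraries share 41 barcodes, 36 of them among the cells used.

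After filtering, 4080 sham and 6864 DOCA-salt cells were used, with 624 to 1281 cells and 1782050 to 4065978 UMIs (unique molecules counted) per sham mouse, and 764 to 2172 cells and 2708758 to 9048096 UMIs per DOCA-salt mouse. Clustering gave 20 clusters, 6 of which stayed unnamed. Nonclassical monocyte-like cells, the patrolling monocytes of the vessel wall, were a single cluster of 110 sham and 121 DOCA-salt cells with all 11 of their 11 markers raised, among them Ace, Treml4 and Cd300e. None of the 10 class I genes was among the variable genes on which cells were clustered. Classical monocyte-like cells were few in sham mice, with 27 cells and as few as 3 in a mouse.

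Class I molecules display peptides from inside the cell to CD8 T cells and are read by NK cells as a sign of self. The immunoproteasome cuts proteins into peptides, the TAP1 and TAP2 transporter moves these into the endoplasmic reticulum, and tapasin (Tapbp) holds the empty heavy chain and beta-2-microglobulin (B2m) there until a peptide fits. H2-K1 and H2-D1 encode the classical heavy chains of this strain, which nearly all nucleated cells carry. H2-T23 encodes Qa-1, which presents signal peptides to CD94/NKG2 receptors of NK cells, and H2-Q7 encodes the Qa-2 heavy chain. Transcription of these genes is known to depend on the NLRC5 enhanceosome at an upstream module and on interferon and NF-kB elements beside it.

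On GRCm38 (GENCODE M21) B2m is the 1 gene of the 10 outside the MHC, on the forward strand of chromosome 2 (122147686 to 122153083). The other 9 lie on chromosome 17, and their order along it is Tapbp, H2-K1, Psmb9, Tap1, Psmb8, Tap2, H2-D1, H2-Q7 and H2-T23. H2-K1 runs from 33996017 to 34000347 on the reverse strand and H2-D1 from 35262730 to 35267499 on the forward strand. Psmb9 (34181987 to 34187764, reverse) and Tap1 (34187553 to 34197225, forward) share 212 bases on opposite strands. The counting strand is not given in the sources used here, so reads in those bases cannot be assigned to one of the pair. The heavy chain genes are known as closely related paralogs. The identity of their transcripts was not measured here, and how the counting divided reads among H2-K1, H2-D1, H2-Q7, H2-Q4 and H2-Q6 is uncertain.

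The upstream sequences of H2-K1, H2-D1 and H2-Q7 are shown because these 3 heavy chain genes lay below sham together in nonclassical monocyte-like cells. All 10 genes lay below sham there, the heavy chain gene H2-T23 included. That of B2m is shown because it encodes their partner. A part of these sequences in the differences between the groups was not tested. The sequences come from the RefSeq promoter table (GRCm38.p6), which held 9 of the 10 genes. They are written 5' to 3' on the gene's strand and lie within the 250 bases before the RefSeq start. The windows of the 3 genes share 5 runs of at least 10 identical bases, and capitals mark the 3 nearest the start, in order GGCTGGGGATTCCC (with an NF-kB type site), CAGTTTCACTTCTGC (with an interferon response type element) and CCTAACCTGGGTCAG. Capitals further mark TGACG (the core of the X2 site) and ATTGG or its reverse complement (the Y box). The H2-K1 stretch is chr17:34000334-34000462 on the reverse strand, the H2-D1 stretch chr17:35262919-35263046 and the H2-Q7 stretch chr17:35439018-35439144, both forward. The GENCODE model of H2-D1 begins further upstream, so its stretch lies inside that model.
H2-K1: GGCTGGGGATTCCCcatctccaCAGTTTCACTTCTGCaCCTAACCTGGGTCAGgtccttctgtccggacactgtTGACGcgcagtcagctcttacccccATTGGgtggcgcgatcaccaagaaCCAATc
H2-D1: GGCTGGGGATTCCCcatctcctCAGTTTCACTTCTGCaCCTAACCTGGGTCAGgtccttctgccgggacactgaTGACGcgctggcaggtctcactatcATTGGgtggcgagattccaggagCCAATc
H2-Q7: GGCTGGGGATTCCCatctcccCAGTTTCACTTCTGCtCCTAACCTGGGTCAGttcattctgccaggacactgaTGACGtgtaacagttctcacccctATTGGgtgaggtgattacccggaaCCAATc
In a global alignment H2-K1 matched H2-D1 at 113 of 129 positions (87.6%), and H2-Q7 matched each of them at 108 of 129 (83.7%).

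The B2m stretch, chr2:122147548-122147638 on the forward strand, has another layout. Its capitals mark a pair of GAAA boxes with any 2 bases between them, an interferon response type element, and ATTGG.
B2m: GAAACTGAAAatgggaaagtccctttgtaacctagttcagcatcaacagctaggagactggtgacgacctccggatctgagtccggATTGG
The 32851 promoter windows of the table were searched on both strands in the 250 bases before the start. GGCTGGGGATTCCC and CCTAACCTGGGTCAG were each in 0.0152% of windows and CAGTTTCACTTCTGC in 0.0213%, and among the 9 class I windows they were found in those of H2-K1, H2-D1 and H2-Q7, from which they were taken. TGACG was in 17.8% of windows and in 6 of the 9 (H2-K1, H2-D1, H2-Q7, B2m, Psmb9 and Tap1), and ATTGG in 33.8% and in 8 of the 9, all but Psmb8. The pair of GAAA boxes was in 2.98% of windows and in those of B2m and H2-T23. A palindrome of GGGGA and TCCCC around 1 base, which overlaps the first shared run, was in 0.0457% and in those of H2-K1 and H2-D1. TGACGT, which contains TGACG, was in 6.47% and in that of H2-Q7. An X box pattern, CC and AGCAAC with any 2 bases between them, was in 1.39% and in none of the 9. The Psmb9 and Tap1 starts face away from each other with 225 bases between them, so their windows overlap. A match is a description of letters, and binding was not measured here.

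Levels are given as CPM, the UMIs of a gene scaled to the total UMIs of its class in a mouse. They count transcript ends and are compared between classes for the same gene, not between genes. The order of H2-K1 among the 5 classes with at least 10 cells in 3 or more mice of each group differed between the groups. In the sham mice nonclassical monocyte-like cells (4074 CPM ± 159) and NK-like cells (4067 ± 209) were level, ahead of T-like cells (2925 ± 48.9; SD, n = 4 mice). In the DOCA-salt mice NK-like cells (3718 CPM ± 299) came first, then T-like cells (2928 ± 273) and nonclassical monocyte-like cells (2439 ± 421), which overlapped each other. Over both groups B-like cells (1797 CPM ± 175; SD, n = 8) and macrophage-like cells (1756 ± 335) overlapped each other, and all mice were higher in T-like than in B-like cells. Classical monocyte-like cells held 1030.3 ± 234 CPM of H2-K1, cDC2-like cells 1116 ± 205, and neutrophil-like cells 726 ± 314, with few cells per mouse in each. The cDC2-like cluster had 5 cDC1 markers raised beside 7 cDC2 markers, so it may hold both kinds of dendritic cell.

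H2-D1 and B2m were highest in nonclassical monocyte-like cells of these 5 classes. H2-D1 averaged 6392 CPM ± 910.4 there (SD, n = 8), and no mouse overlapped NK-like cells, next in order at 4310.4 ± 307. B2m averaged 2888 CPM ± 392 there, and no mouse overlapped T-like cells, next at 1705 ± 118. Macrophage-like cells averaged more H2-D1 (3723 ± 478) than T-like (2830.2 ± 235) or B-like cells (2458 ± 277), with overlap of mice in both cases. For H2-K1 all mice were lower in macrophage-like than in T-like cells, while macrophage-like and B-like cells overlapped.

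H2-Q7 differed most between the 5 ordered classes among the 10 genes. It averaged 630.3 CPM ± 106 in NK-like, 520.1 ± 69.7 in T-like and 246 ± 109 in nonclassical monocyte-like cells (SD, n = 8). Lower still were B-like cells at 138 ± 41.0 and macrophage-like cells at 60.1 ± 24.6. In classical monocyte-like cells it was 14.7 ± 12.7, where 2 of 4 sham mice held no H2-Q7 UMI. H2-T23 ran the other way, with 445 CPM ± 91.8 in macrophage-like and 279 ± 32.8 in T-like cells, and each neighbouring pair overlapped.

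The antigen processing genes varied less between classes than H2-Q7. Psmb8 averaged from 367 CPM ± 106 in macrophage-like to 682 ± 93.8 in nonclassical monocyte-like cells, and Psmb9 from 140.2 ± 28.7 to 239 ± 75.0 in the same classes. Over both groups, Tap1 averaged from 101 CPM ± 21.1 in NK-like to 133 ± 23.9 in T-like cells, and Tap2 from 141 ± 11.7 in B-like to 208 ± 14.2 in NK-like cells. Tapbp averaged from 205 CPM ± 32.2 in T-like to 271 ± 36.5 in macrophage-like cells. Neighbours in the order overlapped for each of these 5 genes. A mature dendritic-like cluster of 14 cells, all from DOCA-salt mice, held 1455 CPM of Psmb8 and 795 CPM of Psmb9 on average over the 3 mice that had such cells, and 5033 CPM of H2-K1 and 3585 CPM of B2m.

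**Figure D1:**
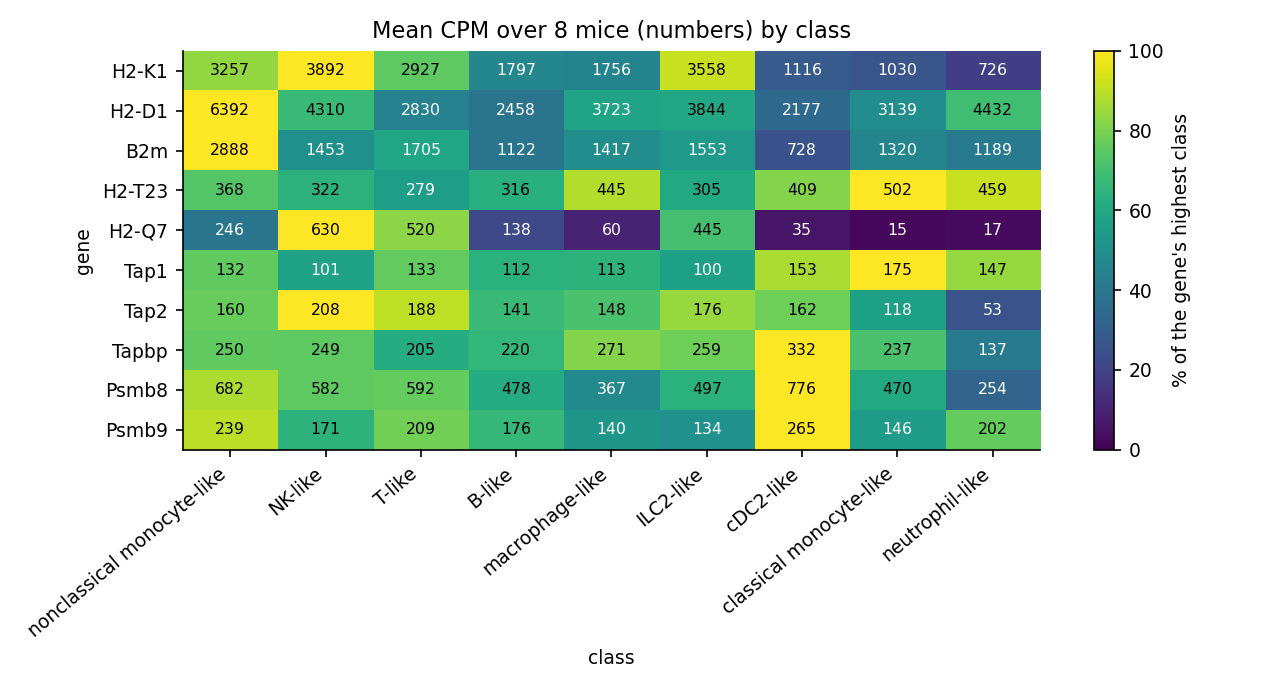
Mean CPM of the 10 class I genes over 8 mice in 9 classes (numbers in the cells), coloured as a percentage of the gene's highest class among those drawn. Among the classes drawn, H2-D1 and B2m peak in nonclassical monocyte-like cells, while H2-Q7 runs from 630.3 CPM in NK-like to 14.7 CPM in classical monocyte-like cells. The mature dendritic-like cluster of 14 cells is not drawn and held 3585 CPM of B2m and 664 CPM of H2-Q7.

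In nonclassical monocyte-like cells H2-K1 was lower in DOCA-salt hearts, at 59.9% of the sham mean. The sham mice held 3985, 4301, 4066 and 3945 CPM (mice 1 to 4) and the DOCA-salt mice 2687, 2525, 1822 and 2724 CPM. The groups did not overlap: the highest DOCA-salt mouse lay well under the lowest sham mouse, and DOCA-salt mouse 3 was lowest. The means were 4074 ± 159 and 2439 ± 421 CPM (SD, n = 4 each), from 1420 and 1339 UMIs, and the fitted log2 change was -0.74 (SE 0.12). Of the 1696 genes measured in this class 3.01% had a lower log2 change than H2-K1. Mice of the groups did not overlap, with DOCA-salt lower, for 4.19% of these genes, and 1.83% passed the edgeR threshold (adjusted p under 0.05) in either direction. The gene was chosen for this difference, so neither share is read as a test of it.

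The other heavy chain genes lay in the same direction. H2-D1, which encodes the second classical heavy chain, held 7371, 6899, 7276 and 7174 CPM in the sham mice and 5844, 5589, 4933 and 6049.9 CPM in the DOCA-salt mice, with no overlap. Its mean was 7180.2 ± 204 against 5604 ± 486 CPM (SD, n = 4 each) and its log2 change -0.36 (SE 0.11), a smaller difference than that of H2-K1. H2-Q7 averaged 326 ± 77.9 and 166 ± 67.1 CPM (log2 change -0.85, SE 0.25), and 1 DOCA-salt mouse, at 248 CPM, lay above the lowest sham mouse, at 226 CPM. H2-Q7 rests on 109 sham and 96 DOCA-salt UMIs. H2-T23, the Qa-1 gene, averaged 406 ± 116 and 329 ± 57.1 CPM (log2 change -0.24, SE 0.20), with overlap.

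B2m, the light chain shared by all these molecules, held 2804, 3145, 3301 and 3431 CPM in the sham mice and 2857, 2605, 2231 and 2729 CPM in the DOCA-salt mice. DOCA-salt mouse 1 lay above sham mouse 1, so the groups overlapped by this pair. The means were 3171 ± 271 and 2606 ± 270.2 CPM (SD, n = 4 each; log2 change -0.28, SE 0.12).

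Of the peptide supply genes, Psmb9 was the 1 whose groups did not overlap. It encodes the beta-1i subunit of the immunoproteasome and held 382, 224, 259.8 and 312 CPM in the sham mice and 189.8, 167, 174 and 206 CPM in the DOCA-salt mice. Its log2 change was -0.68 (SE 0.22), from 103 and 99 UMIs. Psmb8, the beta-5i subunit, averaged 738 ± 62.1 and 626 ± 90.7 CPM (log2 change -0.27, SE 0.16). The transporter genes Tap1 (143 ± 47.1 and 120.2 ± 36.5 CPM) and Tap2 (180.0 ± 36.9 and 139.5 ± 65.4 CPM) and the tapasin gene Tapbp (279.5 ± 79.6 and 221 ± 42.0 CPM) overlapped, with log2 changes of -0.26, -0.42 and -0.34. In all, 10 of 10 genes lay below 0 in this class, with a median log2 change of -0.35, where 50.1% of all genes did and the median was -0.001. With H2-K1 and H2-D1, 3 of 10 genes did not overlap, where 4.19% of all genes did not with DOCA-salt lower. An unadjusted p under 0.05 was reached by 12.7% of all genes there. The 10 genes were chosen with this contrast known.

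**Figure D2:**
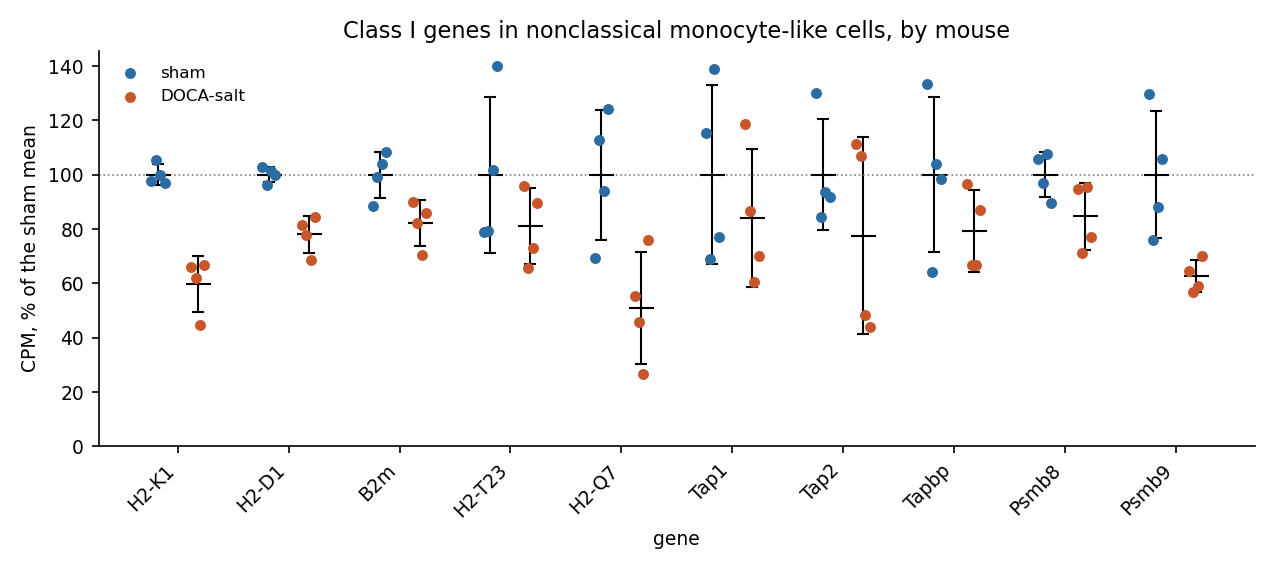
CPM of the 10 genes in nonclassical monocyte-like cells as a percentage of the gene's sham mean, 1 point per mouse (4 sham, 4 DOCA-salt), with bars for mean and SD. The points of the groups do not overlap for H2-K1, H2-D1 and Psmb9, where 4.19% of all genes did not with DOCA-salt lower. H2-Q7 has the lowest DOCA-salt mean, 50.9% of sham.

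Nearly all cells of the class held H2-K1, so the share of cells with a UMI had little room to differ. With each cell thinned to 1000 UMIs, 98.0% of 100 sham cells (98 cells; 95% Clopper-Pearson interval 93.0% to 99.8%) and 90.7% of 118 DOCA-salt cells (107 cells; 83.9% to 95.3%) held an H2-K1 UMI. Without thinning these shares were 99.1% and 98.3%, at median depths of 3411.5 and 3992 UMIs, and 10 sham and 3 DOCA-salt cells were too shallow to thin. The intervals cover counting error only. The mean thinned count was 4.38, 4.81, 5.06 and 4.41 UMIs per cell in the sham mice and 3.22, 2.58, 1.35 and 2.79 in the DOCA-salt mice, again with no overlap. For H2-D1 all thinned cells of both groups held a UMI, with means of 7.41 and 6.03. H2-Q7 was found in 27.0% (18.6% to 36.8%) of thinned sham cells and 11.9% (6.64% to 19.1%) of thinned DOCA-salt cells, and the unthinned shares were 59.1% and 43.0%. In classical monocyte-like cells, where its level was near 0, H2-Q7 was in 0 of 26 thinned sham cells (up to 13.2%) and 2.9% of thinned DOCA-salt cells (0.795% to 7.26%).

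Markers of classical monocytes moved with this class. Their 10 genes summed to 1363 to 1742 CPM in nonclassical monocyte-like cells of sham mice, where Vcan was at 0, and to 2078 to 3805 CPM in those of DOCA-salt mice. Of the cells of the class, 2.73% of the sham and 32.2% of the DOCA-salt cells held a UMI of Chil3, a classical monocyte marker. In NK-like cells, which should lack it, 0 of 541 sham cells and 2.95% of DOCA-salt cells did (median depths 3231 and 3365 UMIs). The class's own 11 markers summed to 7431 to 7822 CPM and 5800.0 to 7941 CPM, and the 13 macrophage markers to 4019.9 to 5209 and 5052 to 7733 CPM. Classical monocyte-like and macrophage-like cells held less H2-K1 than this class, as given above. Without cells that held a Chil3 UMI the log2 change of H2-K1 was -0.62, and without those that held a UMI of Chil3, Vcan, Fn1, F13a1 or Ccr2 it was -0.58. That last exclusion, chosen after the data were seen, left 90 sham cells with 3928 to 4739 CPM per mouse and 56 DOCA-salt cells with 2492 to 3309 CPM per mouse, which did not overlap. Without cells that held a C1q UMI it was -0.83. For H2-D1 the change was -0.24 without Chil3-holding cells and -0.18 without cells holding any of the 5 genes. The part of classical monocyte or macrophage transcripts in these differences was not tested, and treatment and library cannot be told apart in them.

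The difference was of another size under some other clusterings, which put other cells in the class. When the libraries were clustered separately the log2 change of H2-K1 was -0.33, and the sham class then took in all 27 cells classical monocyte-like here, while the DOCA-salt class took in 5 of 138. At a Leiden resolution of 0.5 all 27 and all 138 joined the class, and the change was -1.10. The change of H2-D1 was -0.07 and -0.59 under these settings and that of B2m -0.01 and -0.64. With no filter on low counts that of H2-D1 was -0.25.

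Set against other classes of the same mice, H2-K1 in nonclassical monocyte-like cells went from level with NK-like cells to below them. The ratio of the 2 classes within a mouse lay between 0.931 and 1.08 for sham and between 0.555 and 0.726 for DOCA-salt (n = 4 mice each). Against T-like cells it lay between 1.34 and 1.46 and between 0.706 and 0.889, so that this class held more H2-K1 than T-like cells in each sham mouse and less in each DOCA-salt mouse. Against B-like cells it averaged 2.13 ± 0.0626 and 1.45 ± 0.229, against macrophage-like cells 2.10 ± 0.141 and 1.58 ± 0.170, and against classical monocyte-like cells 3.78 ± 0.791 and 2.64 ± 0.331. The groups did not overlap in the first 4 of these ratios. For classical monocyte-like cells they did, with a sham mouse at 2.86 and a DOCA-salt mouse at 3.13.

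**Figure D3:**
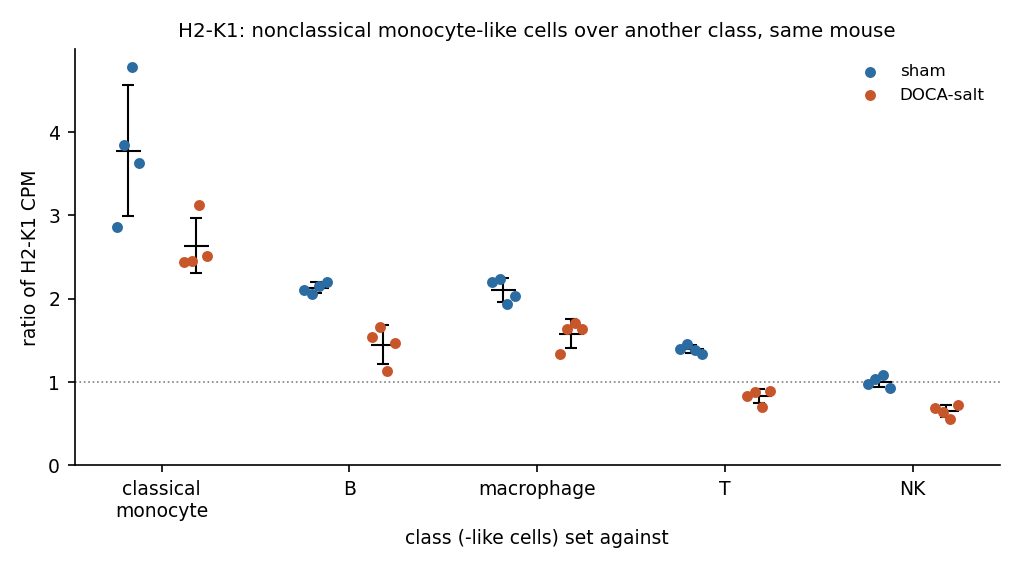
Ratio of H2-K1 CPM in nonclassical monocyte-like cells to that in another class of the same mouse, 1 point per mouse (4 sham, 4 DOCA-salt), with bars for mean and SD and a dotted line at equal levels. Against T-like cells every sham mouse lies above 1 (1.34 to 1.46) and every DOCA-salt mouse below it (0.706 to 0.889).

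In the other classes H2-K1 lay closer to sham. In B-like cells the sham mice held 1893, 2085, 1884 and 1788 CPM and the DOCA-salt mice 1741, 1522, 1617 and 1850.4 CPM, with overlap (log2 change -0.16, SE 0.08). B-like cells joined a large cluster with a smaller one, with Vpreb3 and Sox4 among its leading genes. The smaller made up 6.5% of sham and 1.7% of DOCA-salt cells. Pooled over mice, H2-K1 was 1981 (sham) and 1673 CPM (DOCA-salt) in the large cluster and 1749 and 1910 CPM in the smaller. In NK-like cells the sham mice held 4098, 4167, 3765 and 4238 CPM and the DOCA-salt mice 3904, 3929, 3284 and 3755 CPM (log2 change -0.17, SE 0.07). T-like cells were level, with 2925 ± 48.9 and 2928 ± 273 CPM (log2 change 0.02, SE 0.07). They joined clusters whose shares differed between the groups. The cluster led by Cxcr3 made up 2.55% of sham and 4.6% of DOCA-salt cells. That led by Ly6c1 made up 5.07% and 4.57%, and that led by Cd8b1 3.01% and 4.31%. Pooled over mice, H2-K1 in these was 3509 and 3663, 2698 and 2663, and 2599.8 and 2587 CPM. The smallest, led by Cd163l1, had 6 sham cells. The part of this mix in the T-like values was not tested. Macrophage-like cells averaged 1942 ± 117 and 1571 ± 395 CPM (log2 change -0.32, SE 0.16), where DOCA-salt mouse 3 held 1063 and DOCA-salt mouse 1 held 2018. In classical monocyte-like cells the means were 1112 ± 222 and 948 ± 246 CPM (log2 change -0.29, SE 0.22). The groups overlapped in each of these 5 classes.

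**Figure D4:**
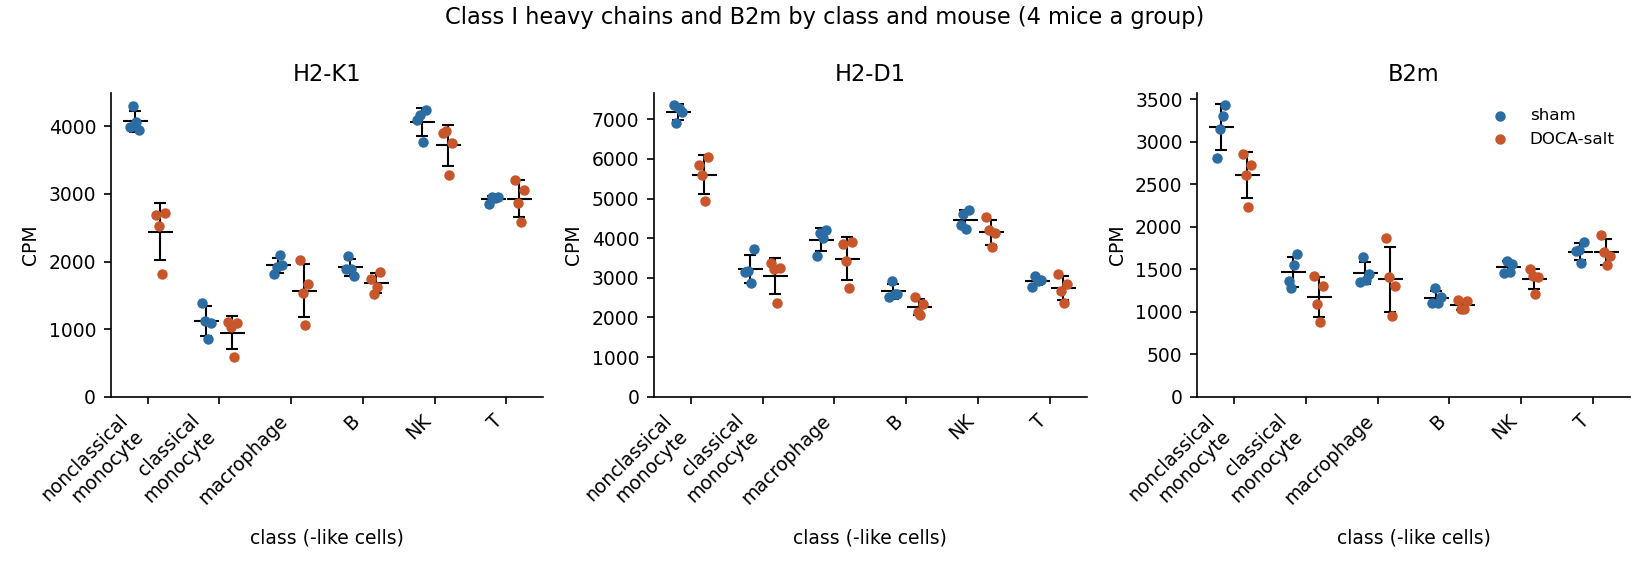
CPM of H2-K1, H2-D1 and B2m by class, 1 point per mouse (4 sham, 4 DOCA-salt), with bars for mean and SD. The groups stand apart for H2-K1 in nonclassical monocyte-like cells (3945 to 4301 against 1822 to 2724 CPM) and overlap for it in the other 5 classes.

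None of the other 9 genes passed the edgeR threshold in the 5 other classes, and DESeq2 called 0 of them as well. In macrophage-like cells 0 of 9 passed, where 0.317% of all genes did; 2 had an unadjusted p under 0.05 (9.23% of all genes) and the lowest adjusted p was 0.32 by edgeR. In B-like cells 0 of 9 passed against 1.25% of all genes, with 3 at an unadjusted p under 0.05 (11.9% of all genes) and a lowest adjusted p of 0.267. In NK-like cells 0 of 9 passed against 0.981%, with 4 at an unadjusted p under 0.05 (9.34%) and a lowest adjusted p of 0.418. In T-like cells 0 of 9 passed against 0.43%, with 2 (7.96%) and a lowest of 0.387. In classical monocyte-like cells 7 of the 9 had enough counts to be tested and 0 passed against 0.0631%, with 1 (6.68%) and a lowest of 0.633. A p that misses the threshold does not show that the groups had equal levels.

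The direction was mostly below sham, by small amounts. Over the 5 other classes 42 of 48 fitted values lay below 0, H2-K1 included: 10 of 10 in macrophage-like cells (48.8% of all genes there), 10 of 10 in B-like (48.2%), 9 of 10 in NK-like (50.2%), 7 of 10 in T-like (50.7%) and 6 of 8 in classical monocyte-like cells (51%). The median log2 change of the fitted genes was -0.34, -0.15, -0.15, -0.10 and -0.20 in these classes, against medians of all genes between -0.011 and 0.009. All classes draw on the same 8 mice and 2 libraries, and genes of a class share its cells, so these counts are not independent of each other. H2-K1 in every class also belongs to the difference the set was chosen on. The counts are therefore a description with no test.

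In macrophage-like cells H2-T23 and Tap2 were the genes whose groups did not overlap. The class is a single cluster with 13 macrophage markers and 3 cDC2 markers raised. A further cluster with 7 macrophage markers raised, led by Cbr2, stayed unnamed for markers of 2 lineages. Its 318 sham and 352 DOCA-salt cells are left out of these values. H2-T23 held 595, 435, 544 and 489 CPM in the sham mice and 424, 330.4, 358 and 385 CPM in the DOCA-salt mice, with no overlap (log2 change of -0.46 with SE 0.16, adjusted p = 0.32 by edgeR). Tap2 held 153, 179, 194 and 161 CPM against 123, 124, 114 and 139 CPM, also with no overlap (log2 change of -0.47 with SE 0.17, adjusted p = 0.358 by edgeR). These 2 of 10 genes compare with 2.6% of all genes in the class that did not overlap with DOCA-salt lower. H2-Q7 had a like log2 change (-0.44, SE 0.32; 70.3 ± 23.6 and 50 ± 24.2 CPM) but overlapped. H2-D1 (3964 ± 294 and 3481 ± 539 CPM), B2m (1454 ± 129.7 and 1379 ± 381 CPM) and Psmb8 (405 ± 129 and 329 ± 74.7 CPM) overlapped widely. In this class the 10 classical monocyte markers summed to 826 to 1640.0 CPM in sham and 1766 to 2318 CPM in DOCA-salt mice, and their part in these differences was not tested.

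In B-like cells 3 of 10 genes did not overlap, H2-D1, H2-T23 and Tap1, where 4.44% of all genes did not with DOCA-salt lower. H2-D1 held 2526, 2923, 2579 and 2587 CPM in the sham mice and 2516, 2134, 2050.2 and 2347 CPM in the DOCA-salt mice, and mouse 1 of each group nearly met (log2 change of -0.21 with SE 0.08, adjusted p = 0.267 by edgeR). H2-T23 varied little among mice, with 333 ± 4.28 and 300.2 ± 8.42 CPM (SD, n = 4 each; log2 change of -0.13 with SE 0.08, adjusted p = 0.55 by edgeR). Tap1 averaged 125 ± 5.89 and 98.8 ± 15.2 CPM (log2 change of -0.29 with SE 0.11, adjusted p = 0.305 by edgeR). H2-Q7 averaged 165 ± 19.7 and 111 ± 40 CPM (log2 change -0.50, SE 0.19), and Psmb8 was level at 484 ± 40.1 and 472 ± 32.3 CPM. These values leave out a further cluster with B cell genes, led by Ppp1r15a, which stayed unnamed; with it added, 0 of 9 passed as well. In the smaller B-like cluster named above, pooled over mice, H2-D1 was 2732 (sham) and 2507 CPM (DOCA-salt) and B2m 1061 and 1193 CPM. In the large B-like cluster H2-D1 was 2681 and 2277 CPM and B2m 1226 and 1077 CPM.

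NK-like cells, which survey class I on other cells, differed by small amounts in their own class I genes. Psmb9 was the 1 gene of 10 without overlap, where 2.04% of all genes had none with DOCA-salt lower: it held 185, 189, 190 and 179.7 CPM in the sham mice and 172, 152, 130.1 and 173 CPM in the DOCA-salt mice (log2 change of -0.24 with SE 0.11, adjusted p = 0.517 by edgeR). B2m averaged 1522 ± 71.4 and 1383 ± 121 CPM (log2 change of -0.18 with SE 0.08, adjusted p = 0.418 by edgeR), and Tap1 112 ± 18.2 and 89.8 ± 19.3 CPM (log2 change -0.34, SE 0.15). Tap2 was the 1 gene above 0 (log2 change 0.07, SE 0.10).

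In T-like cells no gene of the 10 was without overlap, where 3.19% of all genes were with DOCA-salt lower. Psmb9 (238 ± 26.9 and 180.0 ± 41.3 CPM; log2 change of -0.39 with SE 0.13, adjusted p = 0.387 by edgeR) and Tap1 (148 ± 21.2 and 118 ± 17.6 CPM; log2 change of -0.31 with SE 0.13, adjusted p = 0.51 by edgeR) differed most. B2m was level at 1708 ± 101 and 1702 ± 149 CPM (log2 change 0.01, SE 0.08), as was Psmb8 at 595 ± 34.7 and 589 ± 71.5 CPM. Pooled over mice, Tap1 was 176 (sham) and 168 CPM (DOCA-salt) in the T-like cluster led by Cxcr3. It was 139.9 and 87.8 CPM in that led by Ly6c1 and 138 and 101 CPM in that led by Cd8b1. In classical monocyte-like cells no gene of the 8 fitted was without overlap either, against 1.7% of all genes. Tap1 had the largest value there (254 ± 209 and 96.1 ± 28.0 CPM; log2 change of -1.21 with SE 0.45, adjusted p = 0.633 by edgeR), but sham mouse 4, at 560.3 CPM from 17 UMIs, lay far above the other sham mice. Without that mouse the change of Tap1 was -0.54, and with cells weighted equally it was -1.68. H2-Q7 and Tap2 had too few counts to be fitted in this class.

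**Figure D5:**
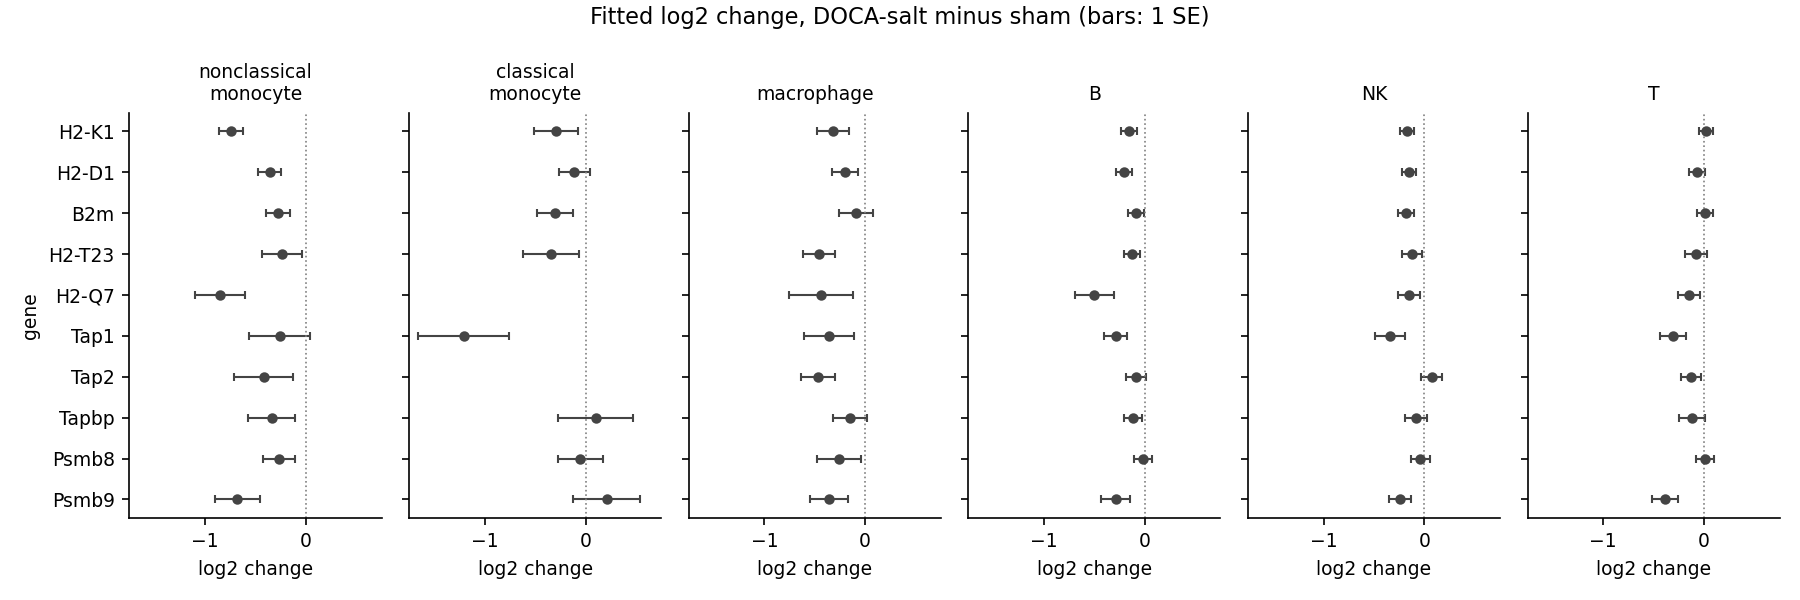
Fitted log2 change of each class I gene (DOCA-salt minus sham, points; bars, 1 SE) in 6 classes of 4 sham and 4 DOCA-salt mice. Points lie furthest below 0 for H2-Q7, H2-K1 and Psmb9 in nonclassical monocyte-like cells and for Tap1 in classical monocyte-like cells; H2-Q7 and Tap2 were not fitted in the latter.

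Other class I genes differed in direction between classes. Of 22 further genes of the pathway, 11 of the 14 measured in macrophage-like and 11 of the 16 in B-like cells were below 0, as were 6 of 7 in classical monocyte-like cells. In NK-like cells 4 of 14 were below 0 (median log2 change 0.07) and in T-like cells 6 of 15 (median 0.00). Of all genes, 48.8% were below 0 in macrophage-like, 48.2% in B-like and 51% in classical monocyte-like cells. In NK-like and T-like cells 50.2% and 50.7% of all genes were. H2-Q6, a Qa-region heavy chain gene of this list, fell in macrophage-like cells, from 75.8 ± 14.1 to 26.8 ± 7.53 CPM (SD, n = 4 each; log2 change of -1.39 with SE 0.25, adjusted p = 0.0235 by edgeR), 1 of 14 measured there. H2-Q4, of the same region, fell in B-like cells, from 196 ± 19.8 to 139.7 ± 11.9 CPM (log2 change of -0.46 with SE 0.11, adjusted p = 0.0477 by edgeR), 1 of 16 measured. Of all genes, 0.317% passed in macrophage-like and 1.25% in B-like cells. The H2-Q6 call was lost in 9 of 19 alternatives and kept its direction in all 19, and the H2-Q4 call was lost in 12 of 21 and its sign turned in 1 more. With a mouse left out, the H2-Q6 call was lost without any 1 of the sham mice or DOCA-salt mouse 2 or 4, at values from -1.47 to -1.30. The H2-Q4 call was lost without sham mouse 1, 2 or 3 or any 1 of the DOCA-salt mice, at values from -0.52 to -0.42. Both are among the paralogs named above. In nonclassical monocyte-like cells 7 of the 10 with enough counts were below 0 (median log2 change -0.39) and 0 passed by edgeR, with 4 at an unadjusted p under 0.05. Of all genes there, 50.1% were below 0 and 12.7% had an unadjusted p under 0.05. The largest changes among the 10 were those of H2-Q6 (-0.89, SE 0.31), Fcgrt (-0.75, SE 0.37), H2-Q4 (-0.69, SE 0.23) and H2-T22 (-0.67, SE 0.28).

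Of 18 regulators of class I transcription 9 had enough counts in nonclassical monocyte-like cells. All 9 were below 0 there (median -0.32), where 50.1% of all genes were. By edgeR 0 of the 9 passed, with 0 at an unadjusted p under 0.05. Among the largest were the interferon-regulated factors Irf1 (-0.50, SE 0.28) and Irf2 (-0.42, SE 0.21) and the NF-kB subunit Rela (-0.34, SE 0.34). Irf8, a transcription factor of myeloid and lymphoid cells, fell in NK-like cells, from 902 ± 202 to 624 ± 84.2 CPM (log2 change of -0.55 with SE 0.12, adjusted p = 0.0107 by edgeR). It was the 1 regulator of 14 measured there that passed, against 0.981% of all genes. That call was lost in 5 of 20 alternatives, among them those without sham mouse 2 (-0.40), without sham mouse 3 (-0.50) and without C1q-holding cells (-0.50). Of 20 interferon-stimulated genes 5 were measured in nonclassical monocyte-like cells, 3 below and 2 above 0, with 0 past the threshold by edgeR and 2 at an unadjusted p under 0.05.

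The constitutive proteasome, which the immunoproteasome subunits replace in part, had no gene past the edgeR threshold in any of the 6 classes. Of its 14 genes 12 were measured in nonclassical monocyte-like cells, 8 above and 4 below 0 (median 0.10), where 50.1% of all genes were below 0, and 0 had an unadjusted p under 0.05. Above 0 were 11 of 14 in macrophage-like cells (median 0.19; 1 gene at an unadjusted p under 0.05) and 14 of 14 in T-like cells (median 0.10; 0 genes), where 48.8% and 50.7% of all genes were below 0. In B-like cells 8 were above and 6 below 0, in NK-like cells 7 and 7, and in classical monocyte-like cells 6 and 7 of 13, with 0, 0 and 1 at an unadjusted p under 0.05.

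MHC class II genes, which present peptides taken up from outside, were on the other side of 0 from class I in nonclassical monocyte-like cells, and on the same side in most members in classical monocyte-like and macrophage-like cells. In nonclassical monocyte-like cells 7 of 7 were above 0 (median log2 change 0.72), with H2-Aa at 862 ± 520.1 and 1733 ± 834 CPM (0.97, SE 0.29) and 0 past the threshold by edgeR, 3 at an unadjusted p under 0.05. Of all genes there, 50.1% were below 0 and 12.7% had an unadjusted p under 0.05. A UMI of C1q, which macrophages express, was present in 30% of the sham and 45.5% of the DOCA-salt cells of this class. Macrophage-like cells held 13225 ± 1766 and 8771 ± 1833 CPM of H2-Aa. Their part in the class II values of nonclassical monocyte-like cells was not tested. In macrophage-like cells 7 of 7 lay below 0 (median -0.51; H2-Eb1 12924 ± 1805 and 8239 ± 2027 CPM) and in classical monocyte-like cells 7 of 7 (median -1.41), with 0 past the threshold by edgeR in either and 6 and 5 at an unadjusted p under 0.05. Of all genes in these 2 classes, 48.8% and 51% were below 0, and 9.23% and 6.68% had an unadjusted p under 0.05. In B-like cells, which make class II themselves, 5 of 11 were below 0 and 0 passed by edgeR, with 2 at an unadjusted p under 0.05. Shares of all genes in B-like cells were 48.2% below 0 and 11.9% at an unadjusted p under 0.05.

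Class II transcripts fell in T-like and NK-like cells, which make little of their own. In T-like cells 8 of 9 were below 0 and 3 passed by edgeR, against 50.7% and 0.43% of all genes. H2-Aa went from 315 ± 75.5 to 142 ± 30.5 CPM (-1.09, adjusted p = 0.00504 by edgeR), H2-Eb1 from 248 ± 60.8 to 114 ± 31 CPM (-1.04, adjusted p = 0.0154) and Cd74, the invariant chain, from 1034 ± 247 to 566 ± 156 CPM (-0.84, adjusted p = 0.0428). In NK-like cells 5 of 7 were below 0 and 2 passed, H2-Aa (-0.63, adjusted p = 0.0216 by edgeR) and Cd74 (-0.63, adjusted p = 0.00305 by edgeR). Of all genes in NK-like cells, 50.2% were below 0 and 0.981% passed. All 5 calls were lost with doublets kept, where the T-like values of H2-Aa, H2-Eb1 and Cd74 were -0.59, -0.62 and -0.40 and the NK-like values of H2-Aa and Cd74 -0.30 and -0.11. A C1q UMI, from genes that macrophages express, was present in 44.8% of the sham and 46.6% of the DOCA-salt T-like cells and in 32.7% and 42.8% of the NK-like cells. Without such cells the T-like calls were lost (H2-Aa -0.50, H2-Eb1 -0.54, Cd74 -0.38). Both NK-like genes still passed by edgeR (H2-Aa -0.68 with adjusted p = 0.0105, Cd74 -0.73 with adjusted p = 0.000394). Leaving these cells out also lowers the depth, and the source of the class II transcripts was not tested. In all, 2 of 20 alternatives lost the T-like H2-Aa call, 7 of 20 that of H2-Eb1 and 8 of 20 that of Cd74, and 7 of 20 and 3 of 20 lost the NK-like calls of H2-Aa and Cd74. With a mouse left out, the T-like call of H2-Eb1 was lost without sham mouse 1, 2 or 3 or DOCA-salt mouse 2 or 3 (-1.02 to -0.95), and that of Cd74 without sham mouse 1, 2 or 3 or DOCA-salt mouse 2, 3 or 4 (-0.84 to -0.72). The NK-like call of H2-Aa was lost without sham mouse 1, 3 or 4 or DOCA-salt mouse 2 or 4 (-0.65 to -0.45).

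Across classes the gene whose pattern was most like that of H2-K1 was Fyn. Over 12 points (6 classes in 2 groups, log2 scale, 3085 genes with at least 50 CPM on average) Pearson's r was 0.963 for Fyn, 0.944 for Cd82, 0.936 for Akr1b3, 0.899 for Pdap1 and 0.895 for Med21. Among the class I genes it was 0.920 for H2-Q7 and 0.888 for Tap2, but 0.517 for H2-D1 and -0.517 for H2-T23. Within nonclassical monocyte-like cells, over the 8 mice and 2985 genes, r was 0.976 for H2-D1, 0.909 for H2-Q7 and 0.888 for B2m. The closest genes outside the class I set were Tbpl1 (0.970), Ckb (0.959), Malat1 (0.930), Cd300ld3 (0.925) and Ly6e (0.920). Points share libraries and depth, and the 8 mice fall into the 2 groups, so these values describe likeness only.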

How the data were processed

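RNA and antibody-derived molecules of leukocytes from 4 sham and 4 DOCA-salt hearts were measured in 2 pooled libraries. The deposited matrices hold raw UMI counts per feature and barcode. They were made with Cell Ranger, version 3.1.0 per the file headers; Seurat 4 and build mm10 are named in the submitters' processing notes. The deposited feature and barcode lists are other text files with no values. Annotation release and counting strand are not given in the sources used here.

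Barcodes were kept from 200 genes up, if mitochondrial UMIs made up 10% or less. Scrublet (scanpy 1.11.5) removed 53 sham (1.25%) and 243 DOCA-salt (3.31%) doublets, and 136 and 321 cells whose top hashtag was under 2 times the second had no mouse. Cells were clustered on 2000 variable genes, 30 components, 15 neighbours and Leiden resolution 1.0 (leidenalg 0.10.2). A cluster was named "X-like" from at least 3 markers (in 15% of cells, log2 fold of 1.0); the rules that leave mixed or shallow clusters unnamed were chosen with the clusters in view.

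UMIs were summed per class and mouse, from 54500 to 115176 per sham and 80689 to 189426 per DOCA-salt mouse in nonclassical monocyte-like cells and from 12942 in classical monocyte-like cells. Within a class, genes were filtered by filterByExpr and libraries scaled by TMM, before the quasi-likelihood test of edgeR 4.0.16 (R 4.3.3; Benjamini-Hochberg over all genes of the class, threshold 0.05). DESeq2 1.42.0 was an alternative. SEs come from the log2 change and the test statistic. CPM were not divided by length, because 5' reads count transcript ends; a length-scaled level had been foreseen.

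The genes, lists, tests and the genes named were chosen with earlier results of these data known. The rule names all 10 genes and, per list and class, those past the threshold and up to 4 with the largest change; from these, the text keeps those that a result turns on. The shared runs and TGACG were chosen after the sequences were seen. The labels call the 4 mice of a group biological replicates. The edgeR fits were run on simulated data with known changes. Those changes were larger than nearly all fitted here for the class I genes, so the detection of changes this small was not tested. Alternatives were added after the data were seen: B-like cells with the unnamed cluster led by Ppp1r15a, and nonclassical monocyte-like cells without those holding a classical monocyte gene. The others changed the scaling, filter, tool, mice, clustering, doublets, hashtag margin, cell filter and cell weights. A motif and a gene of the lists are not reported here.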

Additional observations from a re-analysis of the deposited data

Results flagged for a closer look

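In 8 of 116 sets of 4 mice tested (a class I gene in a class and group), 1 mouse stood apart from the other 3 by more than Dixon's 95% limit on its gap relative to the set's range; chance flags about 1 in 20. DOCA-salt mouse 3 was low in 4 of the 8. It held 582 CPM of H2-K1 (81 UMIs, 17 cells) and 2371 CPM of H2-D1 in classical monocyte-like cells, where the other DOCA-salt mice held 1028 to 1100.3 and 3221 to 3365 CPM. It also held 421 CPM of H2-Q7 in NK-like cells (the others 656 to 684) and 375 CPM of H2-Q7 in T-like cells (the others 522 to 536). Sham mouse 3 was low for H2-Q7 in NK-like cells too, with 510 CPM against 691 to 709.8. In B-like cells sham mouse 2 was high for H2-D1, with 2923 CPM against 2526 to 2587, and DOCA-salt mouse 2 low for Tap2, with 124 CPM against 139 to 141. In T-like cells sham mouse 1 was low for H2-K1, with 2852 CPM against 2944 to 2954.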

How the results depend on the processing

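No paired analysis was possible because numbers 1 to 4 only name the hashtags, and each mouse gave cells to a single library. H2-K1 in nonclassical monocyte-like cells kept its direction in all alternatives, from -0.78 to -0.64 in the 8 with a mouse left out and from -1.10 (Leiden resolution 0.5) to -0.33 (each library clustered on its own) in the 15 others. The other settings gave 0 class I genes past the edgeR threshold in macrophage-like, classical monocyte-like, NK-like and T-like cells. In B-like cells they gave 0 as well, except 4 with each library clustered on its own: B2m 1.57, Psmb8 1.11 and Psmb9 0.66 higher and Tap1 -0.69 lower. Per mouse, that class then held 43 to 90 cells (sham) and 359 to 1004 cells (DOCA-salt).

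Of 58 pairs of gene and class 37 kept their sign throughout; the others turned as follows, and the cause was not tested. In B-like cells, each library clustered on its own gave H2-D1 0.17, H2-T23 0.22 and Tapbp 0.0009. Leiden resolution 2.0 gave B2m 0.10, H2-Q7 0.14, Tapbp 0.33, Psmb8 0.11, Psmb9 0.06 and H2-Q4 0.01. Without C1q-holding cells Tap2 was 0.14 and Psmb8 0.04 in B-like cells, and Tapbp 0.02 in NK-like cells. In classical monocyte-like cells, no filter on low counts gave H2-D1 0.28, B2m 0.07, H2-T23 0.005 and Psmb8 0.29. There Tapbp was -0.02 with DESeq2, -0.03 with a hashtag margin of 5 and -0.63 with cells weighted equally. Psmb8 was 0.01 with that margin and 0.07 without C1q-holding cells, and Psmb9 -0.23 without them and -0.26 with cells weighted equally. Equal weights gave B2m 0.06 in macrophage-like and Psmb8 0.02 in NK-like cells, and no scaling gave Psmb8 0.007 in NK-like, B2m -0.006 and Psmb8 -0.01 in T-like cells. In T-like cells B2m was -0.02 without C1q-holding cells, and Psmb8 -0.05 without them, -0.0006 at resolution 0.5, -0.01 with doublets kept and -0.002 with a stricter cell filter. H2-K1, untested, was 0.07 in classical monocyte-like cells with no filter, and in T-like cells -0.003 without C1q-holding cells and -0.009 without DOCA-salt mouse 1.

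With a mouse left out the sign turned within these ranges: B2m -0.26 to 0.03 in macrophage-like cells; H2-D1 -0.17 to 0.03, Tapbp -0.12 to 0.51 and Psmb8 -0.18 to 0.05 in classical monocyte-like cells; Psmb8 -0.07 to 0.05 in B-like and -0.08 to 0.06 in NK-like cells; B2m -0.03 to 0.04 and Psmb8 -0.05 to 0.07 in T-like cells. The number of all genes past the threshold went from 31 to between 5 and 204 in nonclassical monocyte-like, from 97 to between 2 and 2464 in B-like, from 14 to between 5 and 161 in macrophage-like, from 64 to between 31 and 130 in NK-like, from 29 to between 6 and 154 in T-like and from 1 to between 1 and 27 in classical monocyte-like cells. Few cells per mouse limit the depth, with 2 H2-Q7 UMIs in all sham classical monocyte-like cells.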

Other observations

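DOCA-salt mouse 3 was the lowest of its 4 mice for 36 of 58 pairs of a class I gene and a class, and DOCA-salt mouse 1 for 0. This was noticed after the values were seen. By class the count for DOCA-salt mouse 3 was 6 of 10 in macrophage-like, 6 of 8 in classical monocyte-like, 6 of 10 in nonclassical monocyte-like, 4 of 10 in B-like, 8 of 10 in NK-like and 6 of 10 in T-like cells. Over all genes of these classes the same mouse was lowest for 36.4%, 30.4%, 34.3%, 32.4%, 34.5% and 39.4%. In sham mice the counts were more even, at 19, 13, 13 and 13 of 58. Genes of a class share its cells, so the pairs are not independent, and no test was made. Without DOCA-salt mouse 3 the log2 change of H2-K1 in nonclassical monocyte-like cells was -0.64.

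ILC2-like cells, with 6 to 19 cells per mouse, were not fitted. Their H2-K1 level was 3619 ± 235 CPM (sham) and 3497 ± 721 CPM (DOCA-salt; SD, n = 4 each) and that of H2-D1 3837 ± 124 and 3851 ± 165 CPM, with overlap.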
